A study of Mus musculus with 6 samples.

Results

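The T cell receptor complex and its coreceptors were followed through 10 genes: the CD3 chains CD3D, CD3E, CD3G and CD247, the coreceptors CD4, CD8A and CD8B1, the costimulatory receptors CD28 and ICOS, and the transcription factor FOXP3. They were taken by symbol from a table of 46937 gene symbols. All 10 were among the 21201 genes with enough counts to be tested, and CD8B1 stands in the table under its synonym CD8B. Symbols keep the capitals of that table.

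The T cell receptor is an antigen-binding heterodimer of alpha and beta or gamma and delta chains that cannot signal alone. The CD3 delta, epsilon, gamma and zeta chains, encoded by CD3D, CD3E, CD3G and CD247, carry its signal to the kinases LCK and ZAP70. CD4 and CD8 hold LCK and bind MHC class II and class I molecules, CD28 and ICOS add a second signal, and FOXP3 directs the regulatory T cell programme. In tumours these transcripts serve as markers of T cells in the tissue, though other cells carry some of them.

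The 6 libraries were made from total RNA of biopsies of mouse lung squamous carcinoma, 3 from PSCN and 3 from PSC tumours. PSCN tumours express NSD3 T1242A, a mutant of a histone H3 lysine methyltransferase, on top of an activating Pik3ca H1047R allele, Sox2 overexpression and loss of Cdkn2a/b. PSC tumours carry those same 3 alterations without the mutant, have the genotype NSD3 WT and serve as controls, so the one comparison asks what differs in the tumours when the mutant is expressed. The labels name neither a promoter nor a Cre driver for these alleles, and do not state whether the biopsies are of different mice, so that a p-value here reflects the spread among 6 samples that may share animals.

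Total counts ranged from 69563622 to 72807077 per library. Levels are given as CPM, counts scaled to the normalized library size. NSD3 itself stood at 821, 918 and 1932 CPM in PSCN libraries 1, 2 and 3, against 79.7, 96.7 and 102 CPM in PSC libraries 1, 2 and 3, a log2 fold change of 3.72 (SE 0.41) that edgeR did not call (adjusted p = 0.137). PSC library 3 stood apart: its log2 CPM correlated on average at 0.941 with the PSCN libraries and at 0.908 with the other PSC libraries, a description across genes, which are not independent replicates. The female transcript XIST marked PSC libraries 2 and 3 (1088 and 1034 CPM) and stood at 0.89 to 2.4 CPM in the other 4, where DDX3Y of the Y chromosome ranged from 54.6 to 84.7 CPM. Squamous markers were present in all 6 libraries but unevenly: the basal keratin KRT5 ranged from 2678 to 7319 CPM in PSCN and from 52.1 to 2035 CPM in PSC, with the lowest level in PSC library 1.

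All 10 receptor and coreceptor genes had a lower mean level in PSCN than in PSC tumours, but edgeR's quasi-likelihood test called none of them (0 of 10 at an adjusted p under 0.05). The test called 0% of all genes tested as lower in PSCN and 0.00472% as higher, which is 1 gene of 21201. At an unadjusted p under 0.05, 2 of the 10, CD28 and CD4, were lower in PSCN, beside 12.2% of all genes tested. The same 2 genes were the ones with all PSCN libraries below all PSC libraries, a pattern held by 13.4% of all genes tested. The median log2 fold change of the 10 genes was -0.95, beside -0.01 over all genes tested, of which 50.9% were negative. Since the libraries are bulk tissue, fewer T cells and less RNA per T cell cannot be told apart.

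The call on CD28 and CD4 depended on the tool. DESeq2's Wald test called 2 of the 10 lower, CD28 (adjusted p = 0.00109) and CD4 (adjusted p = 0.0400), while calling 1834 genes lower in all. limma-voom with sample quality weights called 1, CD28 (adjusted p = 0.0391), among 1238 genes lower. In the authors' deposited table, 8.1% of 22710 genes with an adjusted p were lower in PSCN at 0.05. There CD28 stood at a log2 fold change of -1.71 (SE 0.416, adjusted p = 0.00157 in the authors' deposited table) and CD4 of -1.39 (SE 0.502, adjusted p = 0.0471 in the authors' deposited table). The other 8 genes had adjusted p-values of 0.177 to 0.785 in the authors' deposited table.

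**Figure D1:**
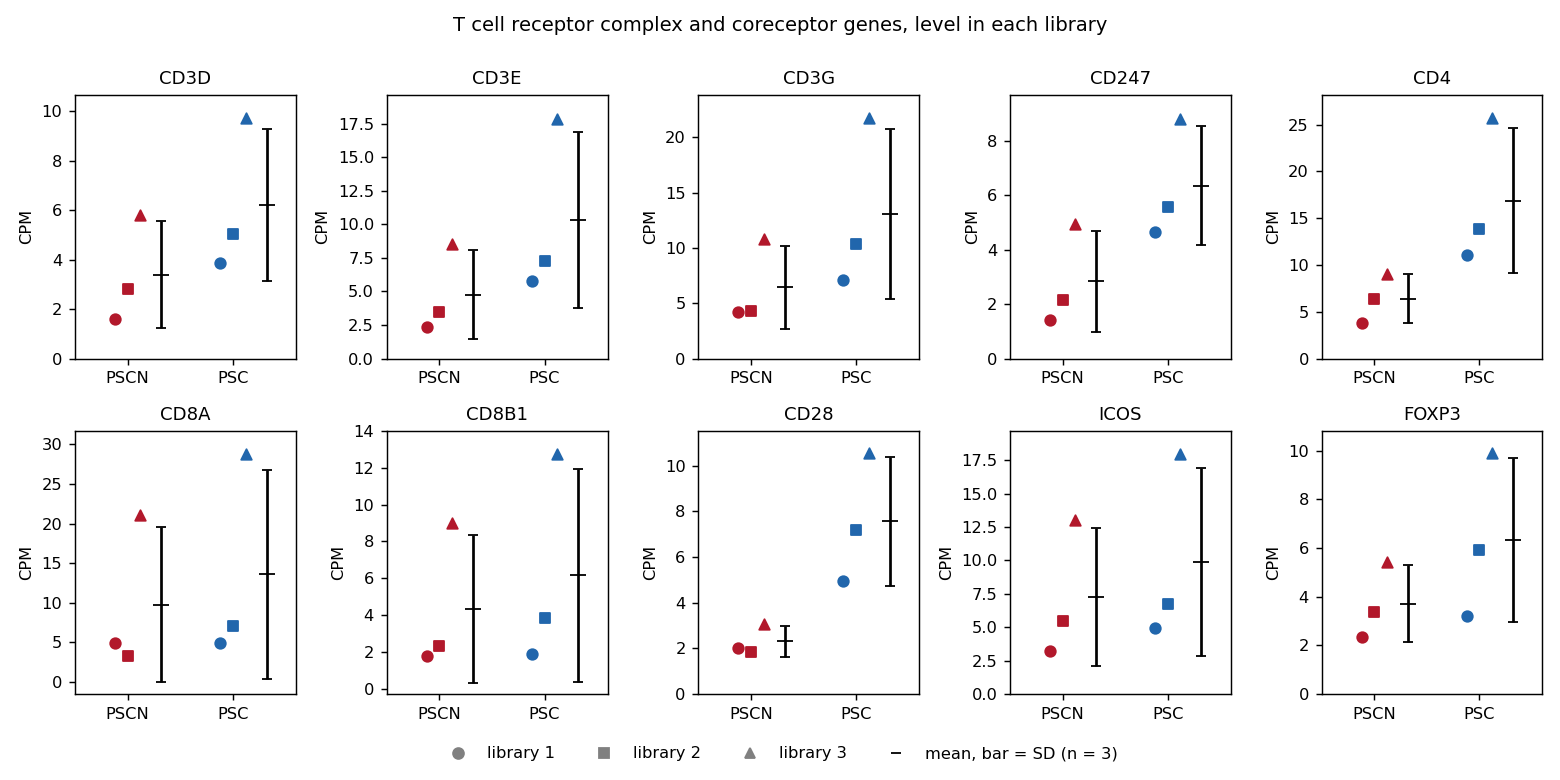
Level of each of the 10 genes in each library, in CPM on a linear axis, for PSCN (red, left) and PSC (blue, right) tumours; marker shapes show the library number, and the bar beside each group is the mean with its SD (n = 3). Only for CD4 and CD28 do all PSCN points lie below all PSC points, and library 3 is the highest point of its group in every panel.

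The 3 genes CD3D, CD3E and CD3G lie side by side on chromosome 9 (GRCm38). CD3G spans chr9:44969572-44980431 on the minus strand and CD3D spans chr9:44981786-44987339 on the plus strand, so the pair is divergent with 1354 bases between their starts. CD3E follows at chr9:44998740-45009627 on the minus strand, 11400 bases beyond the end of CD3D. CD247 lies alone on chr1:165788681-165877277, plus strand.

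Levels of the 3 clustered CD3 genes moved together across libraries, and so did that of CD247, which is not their neighbour. The upstream windows of the 3 clustered genes are shown because of their position. Each is the 250 bases before the RefSeq start in GRCm38.p6, written 5′ to 3′ on the gene's strand, with the ETS core GGAA (TTCC when it lies on the other strand) in capitals. The CD3D window is chr9:44981536-44981785, the CD3G window chr9:44980432-44980681 and the CD3E window chr9:45009612-45009861.
CD3D: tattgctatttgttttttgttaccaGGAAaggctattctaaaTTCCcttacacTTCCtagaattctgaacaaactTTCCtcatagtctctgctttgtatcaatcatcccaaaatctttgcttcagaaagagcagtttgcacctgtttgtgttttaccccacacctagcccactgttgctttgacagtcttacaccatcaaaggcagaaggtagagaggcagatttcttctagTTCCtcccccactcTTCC
CD3G: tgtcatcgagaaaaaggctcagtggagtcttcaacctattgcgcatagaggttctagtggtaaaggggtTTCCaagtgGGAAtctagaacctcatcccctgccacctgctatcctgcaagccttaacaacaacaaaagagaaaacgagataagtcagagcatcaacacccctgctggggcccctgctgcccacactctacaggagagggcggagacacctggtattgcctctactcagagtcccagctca
CD3E: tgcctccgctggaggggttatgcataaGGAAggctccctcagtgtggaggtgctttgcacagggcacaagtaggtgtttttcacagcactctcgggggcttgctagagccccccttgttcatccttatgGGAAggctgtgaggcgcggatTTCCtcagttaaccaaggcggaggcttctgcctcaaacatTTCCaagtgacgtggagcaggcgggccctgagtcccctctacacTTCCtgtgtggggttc
Both strands were searched. The CD3D window held 6 matches to GGAA, the CD3G window 2 and the CD3E window 5, and 93.4% of 32851 RefSeq windows of the same length held at least 1, with a median of 3. The CD3D and CD3G windows do not overlap, and their GC contents were 41.2% and 51.6%, against 57.2% for CD3E. The TATA box TATAAA was in none of these 3 windows, and 12.4% of all windows held it. RefSeq's table matched 6 of the 10 genes, CD3D, CD3E, CD3G, CD247, CD8A and FOXP3, the last with 2 starts. Of these 7 windows, 7 held GGAA, 7 the E-box CANNTG (66.2% of all windows), 6 GATA (53.6%), 1 TATAAA and 0 TGTGGT (14.0%), with overlaps between motifs allowed. A match is only a string of letters and was not linked to binding in these tumours.

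CD3D, whose product pairs with CD3 epsilon in the complex, stood at 1.6, 2.80 and 5.79 CPM in PSCN libraries 1, 2 and 3, against 3.87, 5.04 and 9.71 CPM in PSC libraries 1, 2 and 3. PSCN library 3 reached above the lower 2 PSC libraries, so the groups overlapped. Its log2 fold change was -0.87 (SE 0.59, edgeR adjusted p = 0.409).

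CD3E, the chain shared by both CD3 dimers, stood at 2.32, 3.43 and 8.52 CPM in PSCN and at 5.79, 7.29 and 17.9 CPM in PSC. Again PSCN library 3 lay above PSC libraries 1 and 2, while PSC library 3 was far above all others. The log2 fold change was -1.12 (SE 0.66, edgeR adjusted p = 0.351).

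CD3G, which pairs with CD3 epsilon in the other dimer, stood at 4.24, 4.25 and 10.8 CPM in PSCN and at 7.14, 10.3 and 21.7 CPM in PSC. PSCN libraries 1 and 2 were nearly level and below every PSC library, and PSCN library 3 lay within the PSC range. The log2 fold change was -1.02 (SE 0.58, edgeR adjusted p = 0.335).

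CD247, which encodes the zeta chain with most of the complex's signalling motifs, stood at 1.43, 2.13 and 4.94 CPM in PSCN and at 4.64, 5.57 and 8.81 CPM in PSC. Here the overlap was a single library, PSCN library 3, which lay just above PSC library 1. Its log2 fold change was -1.16 (SE 0.55, edgeR adjusted p = 0.268). CD247 overlaps POU2F1, a gene on the opposite strand, at 1178 to 3029 counts in PSCN and 3769 to 3911 in PSC. If the counting did not use strand, reads of both genes cannot be told apart.

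The receptor chains that these CD3 chains carry were all lower on average in PSCN as well, with 7 of 7 constant-region genes negative and 0 called. Their median log2 fold change was -1.46. At an unadjusted p under 0.05, 4 of the 7 were lower, beside 12.2% of all genes tested. The gamma chain gene TCRG-C1 stood at 0.627, 0.448 and 0.628 CPM in PSCN and at 3.81, 1.58 and 2.08 CPM in PSC, a log2 fold change of -2.13 (SE 0.45, edgeR adjusted p = 0.175). The delta chain gene TRDC stood at 1.95, 1.22 and 1.20 CPM in PSCN and at 5.12, 3.23 and 4.60 CPM in PSC, a log2 fold change of -1.56 (SE 0.36, edgeR adjusted p = 0.179). The groups did not overlap for either, and PSCN library 3, highest in PSCN for every CD3 chain, was not higher for TRDC. TCRG-C2 (log2 fold change -1.87, SE 0.49) was also free of overlap, and TCRG-C4 (-1.46, SE 0.57) was not. The alpha and beta chain genes TRAC, TRBC1 and TRBC2 had log2 fold changes of -1.16, -1.22 and -1.12.

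The ratio of TRDC to TRAC counts within a library was 0.474, 0.387 and 0.131 in PSCN and 0.783, 0.338 and 0.224 in PSC. These ratios overlapped, and their difference of -0.43 on the log2 scale had a two-sided exact permutation p of 0.7. With 3 libraries a group, that test cannot go below 0.1.

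Of the coreceptors, CD4 and the CD8 chains differed in spread. CD4 (chr6:124864692-124888221, minus strand), carried by helper and regulatory T cells and by some mouse dendritic cells, stood at 3.84, 6.37 and 9.0 CPM in PSCN libraries 1, 2 and 3. In PSC libraries 1, 2 and 3 it stood at 11.1, 13.8 and 25.7 CPM. Every PSCN library was below every PSC library, by a narrow margin between PSCN library 3 and PSC library 1. The fitted level was 2.64-fold lower in PSCN, with a log2 fold change of -1.40 (SE 0.46, edgeR adjusted p = 0.195). Without PSC library 3 the log2 fold change was -0.95 (SE 0.40, edgeR adjusted p = 0.174).

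CD8A (chr6:71373427-71379173, plus strand), the CD8 chain present in both forms of the coreceptor, stood at 4.93, 3.28 and 21.1 CPM in PSCN and at 4.91, 7.05 and 28.8 CPM in PSC. Its lower values were alike in both groups, and library 3 of each group lay several-fold above the others. Within PSCN the highest library was 6.43-fold above the lowest, and within PSC 5.86-fold. The log2 fold change of -0.48 (SE 0.96, edgeR adjusted p = 0.784) was smaller than its own error.

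CD8B1, the beta chain found on conventional cytotoxic T cells, spans chr6:71322788-71337494 on the same strand and ends 35932 bases before CD8A. It stood at 1.76, 2.30 and 8.97 CPM in PSCN and at 1.88, 3.85 and 12.7 CPM in PSC. It shared the pattern of CD8A, with 1 high library in each group and the rest overlapping, and a log2 fold change of -0.50 (SE 0.92, edgeR adjusted p = 0.765). Both CD8 differences turned positive without PSC library 3, at 0.72 (SE 0.88) for CD8A and 0.61 (SE 0.85) for CD8B1 on the log2 scale.

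**Figure D2:**
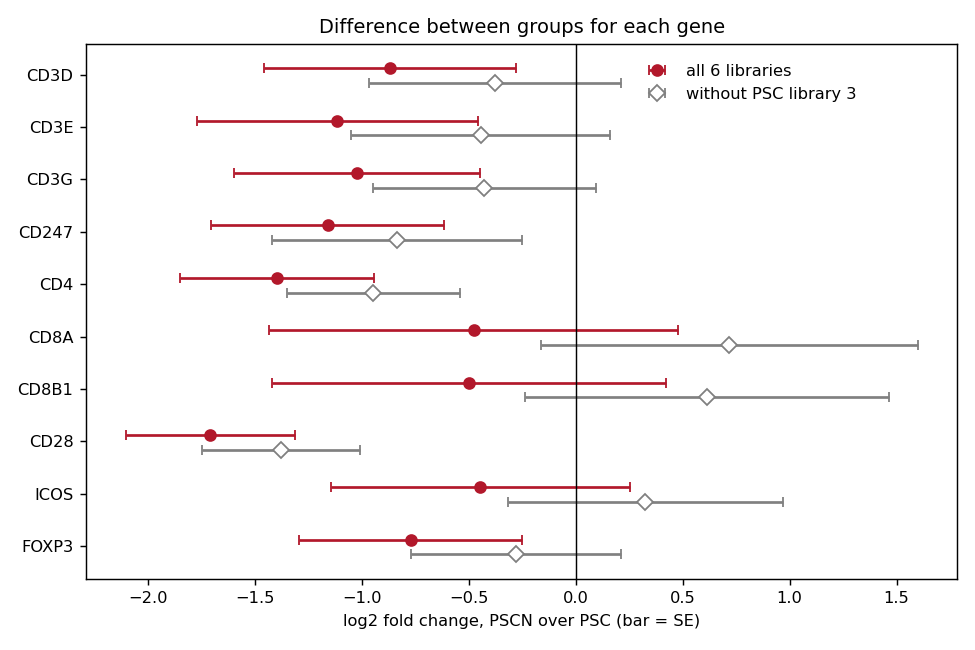
Log2 fold change of PSCN over PSC for each gene with its SE (bars), from all 6 libraries (red circles) and without PSC library 3 (open grey diamonds). All 10 red points lie left of 0; without PSC library 3, CD8A, CD8B1 and ICOS lie right of it, while CD28 stays at -1.38.

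The costimulatory receptors CD28 and ICOS lie on chromosome 1 in one cluster with the inhibitory receptor CTLA4 between them. CD28 spans chr1:60716800-60773359, ICOS chr1:60977927-61000320, both on the plus strand, and CTLA4 lies 113640 bases beyond CD28 and 62094 bases before ICOS.

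CD28, the receptor of CD80 and CD86 on resting T cells, had the largest difference of the 10 genes. It stood at 2.03, 1.82 and 3.08 CPM in PSCN, against 4.95, 7.19 and 10.5 CPM in PSC. All 3 PSCN libraries were low and close together, including library 3, and none reached the lowest PSC library. The mean was 2.31 ± 0.676 CPM in PSCN and 7.56 ± 2.81 CPM in PSC (SD, n = 3 each). That is a level 3.27-fold lower in PSCN, with a log2 fold change of -1.71 (SE 0.40, edgeR adjusted p = 0.180; unadjusted p = 0.00496). Without PSC library 3 the log2 fold change was -1.38 (SE 0.37, edgeR adjusted p = 0.0753). PSC library 1, the only PSC library from a male mouse like the PSCN libraries, was above all 3 of them for CD28 and CD4.

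ICOS, which appears on activated T cells, stood at 3.21, 5.47 and 13.0 CPM in PSCN and at 4.94, 6.72 and 18 CPM in PSC. Its groups overlapped in most of their range, unlike those of CD28. The log2 fold change was -0.45 (SE 0.70, edgeR adjusted p = 0.720), and it was 0.33 (SE 0.64) without PSC library 3. CTLA4, between the pair on the chromosome, stood at -0.51 (SE 0.78) on the log2 scale and followed the pattern of ICOS, with PSCN library 3 and PSC library 3 highest at 9.15 and 11.9 CPM.

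FOXP3 (chrX:7573644-7595245, plus strand) stood at 2.35, 3.37 and 5.43 CPM in PSCN and at 3.21, 5.90 and 9.92 CPM in PSC. PSCN libraries 2 and 3 lay above PSC library 1, so the groups overlapped, and the log2 fold change was -0.77 (SE 0.52, edgeR adjusted p = 0.407). FOXP3 is X-linked, and its highest levels were in the 2 libraries from female mice. The same held for CD4, CD28 and CD247, which are not X-linked, and a link to sex was not tested. With sex as a covariate, an alternative chosen after the data were seen, the log2 fold change of FOXP3 was 0.21. Both female libraries are PSC, so the group difference in that fit compares the PSCN libraries with PSC library 1 alone. PSC library 1 was the lowest PSC library for 10 of 10 genes, so the fit cannot separate sex from that library. In that fit the median of the 10 genes was -0.17, and CD3D, CD3E, CD3G and CD247 stood at -0.19, -0.28, -0.15 and -0.71. CD8A, CD8B1 and ICOS were positive, at 0.99, 1.21 and 0.55. CD28 stood at -1.10 and CD4 at -0.79. FOXP3 overlaps CCDC22, PPP1R3F and GM36995 on the opposite strand, so its reads share the limit of strand given for CD247. CCDC22 had 1281 to 1777 counts in PSCN and 1219 to 1299 in PSC, and PPP1R3F had 92 to 423 counts in PSCN and 383 to 595 in PSC. GM36995 had 94 to 469 counts in PSCN and 237 to 274 in PSC. FLICR overlaps FOXP3 on the same strand, at 10 to 23 counts in PSCN and 16 to 36 in PSC, where strand cannot separate them.

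Ratios of counts within a library do not depend on library size, and 4 of them were compared with a two-sided exact permutation test. The CD4 to CD8A ratio, helper against cytotoxic coreceptor, was 0.778, 1.94 and 0.427 in PSCN and 2.25, 1.96 and 0.893 in PSC. PSCN library 2 lay close to PSC library 2, the other 2 PSCN libraries were below all PSC libraries, and the log2 difference was -0.87 (exact permutation p = 0.2). Without PSCN library 3 this difference was -0.36, and without PSCN library 2 it was -1.45. The ICOS to CD28 ratio was 1.58, 3.0 and 4.23 in PSCN and 0.997, 0.934 and 1.71 in PSC, a log2 difference of 1.22 (exact permutation p = 0.2). PSCN library 1, just below PSC library 3, made the only overlap.

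The FOXP3 to CD3E ratio was 1.01, 0.982 and 0.637 in PSCN and 0.555, 0.810 and 0.555 in PSC, a log2 difference of 0.45 (exact permutation p = 0.2). The CD8B1 to CD8A ratio was 0.358, 0.703 and 0.426 in PSCN and 0.382, 0.547 and 0.442 in PSC, with a log2 difference of 0.07 (exact permutation p = 0.9). Both sets overlapped. With 3 libraries a group the smallest p this test allows is 0.1, so none of these ratios could have passed 0.05.

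Set against PTPRC, the gene of the leukocyte antigen CD45, CD28 and CD4 again separated the groups, a scale chosen after the data were seen. PTPRC itself stood at 70.5, 57.8 and 115 CPM in PSCN and at 88.6, 97.9 and 156 CPM in PSC, with a log2 fold change of -0.49 (SE 0.34, edgeR adjusted p = 0.418). The ratio of CD28 to PTPRC counts was 0.0288, 0.0316 and 0.0267 in PSCN and 0.0559, 0.0735 and 0.0674 in PSC, without overlap. Its log2 difference was -1.17, and its exact permutation p of 0.1 is the smallest the test can give. The ratio of CD4 to PTPRC was 0.0544, 0.110 and 0.0779 in PSCN and 0.125, 0.141 and 0.164 in PSC, a log2 difference of -0.88 (exact permutation p = 0.1) without overlap. CD3E to PTPRC differed by -0.65 (exact permutation p = 0.2) and CD8A to PTPRC by -0.01 (exact permutation p = 0.9), both with overlap. Per CD3E count, CD28 differed by -0.52 on the log2 scale (exact permutation p = 0.3). Of the 9 ratios in this family none could pass an adjustment.

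**Figure D3:**
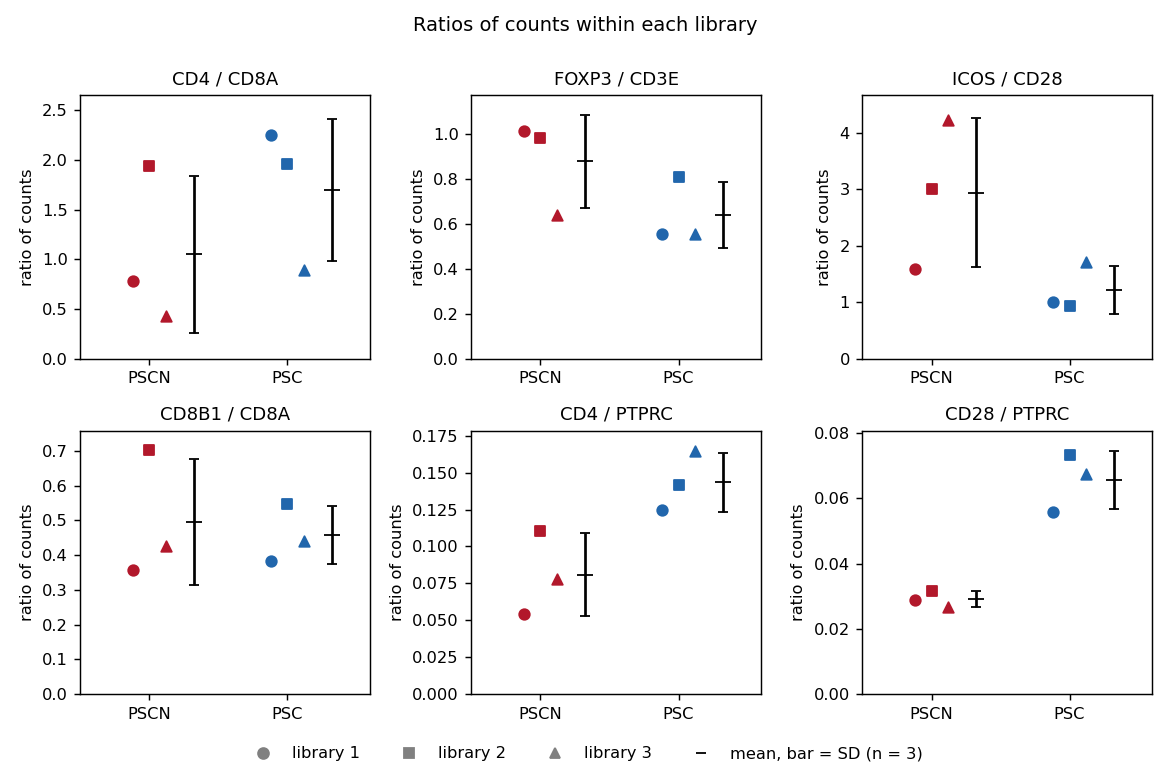
Ratios of counts within each library for PSCN (red, left) and PSC (blue, right) tumours, with the mean and SD of each group (n = 3) beside the points; axes start at 0. The CD28 to PTPRC ratio lies at 0.0267 to 0.0316 in PSCN and 0.0559 to 0.0735 in PSC, while the CD8B1 to CD8A ratios intermix.

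Per kilobase of exon, which allows genes to be compared, CD8B1 had the highest level in PSCN at 2.93 ± 2.71 CPM per kb and CD28 the lowest at 0.378 ± 0.110 (SD, n = 3). Between them came CD8A (2.68 ± 2.70 CPM per kb), ICOS (2.11 ± 1.5), CD3G (1.96 ± 1.15), CD3D (1.87 ± 1.19), CD4 (1.59 ± 0.640), CD3E (1.17 ± 0.811), FOXP3 (0.812 ± 0.343) and CD247 (0.532 ± 0.348). In PSC the order began with CD4 (4.18 ± 1.93 CPM per kb), which ranked sixth in PSCN, and CD8B1 (4.15 ± 3.89), CD3G (3.99 ± 2.34) and CD8A (3.73 ± 3.63) followed. The PSC order went on with CD3D (3.42 ± 1.70 CPM per kb), ICOS (2.88 ± 2.06), CD3E (2.53 ± 1.61), FOXP3 (1.39 ± 0.737), CD28 (1.24 ± 0.459) and CD247 (1.19 ± 0.411). In both groups neighbours in the order differed by less than the larger SD of the pair. The exon length is the union of annotated exons, so a gene with a long annotated end, such as CD28 at 6.12 kb, is scaled down most.

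Libraries of the same group differed widely. Summed over the 10 genes, the level was 27.7, 35.2 and 90.6 CPM in PSCN libraries 1, 2 and 3, against 52.4, 72.8 and 164 CPM in PSC libraries 1, 2 and 3. PSC library 3 was the highest of the 6 libraries for 10 of 10 genes and PSCN library 3 the highest of PSCN for 10 of 10. PSCN library 1 was the lowest of the 6 for 8 genes and PSCN library 2 for the other 2, and PSC library 1 was the lowest of PSC for 10 of 10. CD28 had the smallest spread in PSCN, with the highest library 1.69-fold above the lowest, and CD247 the smallest in PSC, at 1.90-fold. Counts behind these levels ran from 98 for CD247 in PSCN library 1 to 2113 for CD8A in PSC library 3.

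**Figure D4:**
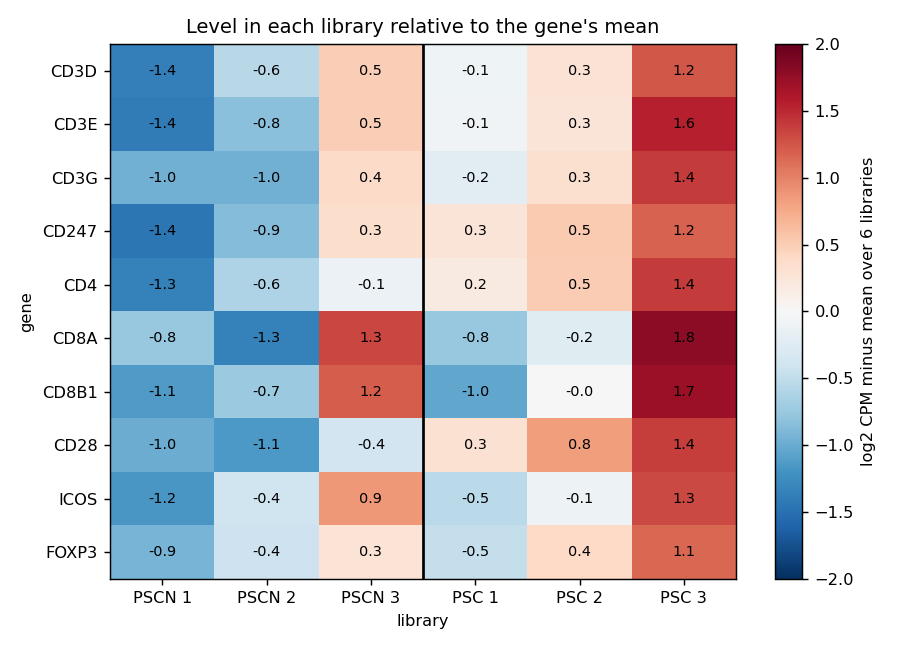
Log2 CPM of each gene in each library relative to the gene's own mean of all 6 (colour and printed value), with PSCN libraries left of the black line and PSC libraries right of it. PSC library 3 is the highest in every row, and PSCN library 3 is above the mean for 8 genes and below it for CD4 and CD28.

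Leaving out 1 library moved the median log2 fold change of the 10 genes by over 1.5 times in either direction. It was -0.40 without PSC library 3, with 3 of the 10 genes positive, and -1.69 without PSCN library 3. Without PSC library 1 the median was -1.22. Without PSC library 3 the CD3 genes CD3D, CD3E, CD3G and CD247 had log2 fold changes of -0.38, -0.45, -0.43 and -0.84, and FOXP3 of -0.28. edgeR called 0 of the 10 genes in each of these fits.

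Across the 6 libraries the 10 genes moved together, a description over libraries that fall into 2 groups. Pearson's r of log2 CPM between pairs ran from 0.581 for CD8B1 and CD28 to 0.991 for CD3D and CD3E. With the mean of the 4 CD3 chains, of which they are part, CD3E had an r of 0.998 and CD3G of 0.981. CD4 had an r of 0.954 with that mean, FOXP3 0.948, ICOS 0.905, CD28 0.876, CD8B1 0.863 and CD8A 0.836. CD28 was least like the CD8 chains and ICOS (r of 0.581 to 0.609).

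Among 14452 other genes ranked by the same measure over 6 libraries, UBASH3A, a negative regulator of receptor signalling, came first with an r of 0.995. The next were WDTC1 (0.992), the T and NK cell surface gene CD7 (0.992), the kinase gene LCK (0.984), POLD3, a DNA polymerase delta subunit (0.983), the thymocyte adaptor THEMIS (0.981), TRBC1 (0.980) and the chemokine receptor CXCR6 (0.980). LCK stood at 5.37, 5.98 and 14.7 CPM in PSCN and at 14.0, 17.0 and 32.5 CPM in PSC, a log2 fold change of -1.29 (SE 0.52, edgeR adjusted p = 0.230). WDTC1 was much more abundant, at 61.7 to 94.3 CPM in PSCN and 86.4 to 116 CPM in PSC.

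In the proximal signalling list, the kinases and adaptors that act next to the receptor, 19 of 22 genes were negative and 0 were called. At an unadjusted p under 0.05, 7 of the 22 were lower, beside 12.2% of all genes tested. The median log2 fold change was -0.87, and -0.45 without PSC library 3. The adaptor gene GRAP2 stood at 3.38, 2.98 and 5.23 CPM in PSCN and at 9.41, 9.48 and 14.4 CPM in PSC (log2 fold change -1.52, SE 0.33, edgeR adjusted p = 0.179). ZAP70, the kinase bound by the phosphorylated zeta chain, stood at 3.08, 2.58 and 5.96 CPM in PSCN and at 16.4, 12.5 and 9.04 CPM in PSC (log2 fold change -1.71, SE 0.42, edgeR adjusted p = 0.187). Neither overlapped, and ZAP70 differed from the CD3 genes in being lowest in library 3 among the PSC libraries. LAT, the membrane scaffold that ZAP70 phosphorylates, stood at a log2 fold change of -1.18 (SE 0.33) and PAG1, which anchors the inhibitory kinase CSK, of -0.73 (SE 0.17), both without overlap.

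Further from the receptor, the list of genes leading to NF-kappaB, NFAT and AP-1 divided. Of 16 genes 9 were negative and 7 positive, the median was -0.05, 0 were called and 2 had an unadjusted p under 0.05 in the lower direction, a share near the 12.2% of all genes tested. PRKCQ, the theta protein kinase C of T cells, stood at 4.05, 3.20 and 4.14 CPM in PSCN and at 23.0, 8.43 and 8.17 CPM in PSC, without overlap (log2 fold change -1.80, SE 0.48, edgeR adjusted p = 0.188). BCL10 (0.55, SE 0.26) and MALT1 (0.78, SE 0.35), which pass the receptor's signal to NF-kappaB, had positive log2 fold changes, and for MALT1 all PSCN libraries were above all PSC libraries. Without PSC library 3 the median of this list was 0.20.

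Of the costimulation partners and ligands, 11 of 12 were tested, since CD70 had too few counts, and 6 were negative and 5 positive with a median of -0.23, which was 0.34 without PSC library 3. None was called, 2 had an unadjusted p under 0.05 in the lower direction and 1 in the higher, beside 12.2% and 9.48% of all genes tested. CD27, a receptor on T and B cells, stood at 1.59, 1.87 and 3.40 CPM in PSCN and at 4.44, 5.13 and 7.89 CPM in PSC (log2 fold change -1.35, SE 0.42, edgeR adjusted p = 0.192). ICOSLG, the ligand of ICOS, had a log2 fold change of -0.68 (SE 0.21, edgeR adjusted p = 0.193). Both were free of overlap. On the other side, the receptor gene TNFRSF9 stood at 24.3, 23.3 and 47.9 CPM in PSCN and at 3.86, 9.83 and 20.9 CPM in PSC (log2 fold change 1.47, SE 0.64, edgeR adjusted p = 0.248), and its ligand gene TNFSF9 had a log2 fold change of 1.10 (SE 0.42, edgeR adjusted p = 0.212). For both, all PSCN libraries were above all PSC libraries, a pattern held by 15.2% of all genes tested.

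Among 13 T cell lineage factors 10 were negative, 0 were called and the median was -0.98. At an unadjusted p under 0.05, 4 of the 13 were lower, beside 12.2% of all genes tested. TOX stood at 1.43, 0.927 and 1.88 CPM in PSCN and at 5.48, 4.92 and 4.29 CPM in PSC (log2 fold change -1.79, SE 0.36, edgeR adjusted p = 0.171). IKZF3 (-2.14, SE 0.64) and EOMES (-1.32, SE 0.46) also did not overlap. IKZF3 is expressed by B cells too.

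Of 14 regulatory T cell genes 10 were negative, FOXP3 among them, and 0 were called. The median of -0.37 was 0.22 without PSC library 3. At an unadjusted p under 0.05, 1 of the 14 was lower, a share below the 12.2% of all genes tested. The 1 gene was ENTPD1, the ectonucleotidase CD39, at 39.7, 21.1 and 36.4 CPM in PSCN and 59.0, 64.2 and 80.5 CPM in PSC (log2 fold change -1.07, SE 0.28, edgeR adjusted p = 0.187). IKZF4, a partner of FOXP3, had -0.87 (SE 0.38), and NT5E, the ectonucleotidase CD73, had 0.66 (SE 0.39), both with overlap.

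Of 10 homing and cytokine receptor genes 9 were negative, 0 were called and the median was -1.02. At an unadjusted p under 0.05, 5 of the 10 were lower, beside 12.2% of all genes tested. The chemokine receptor genes CCR7 (log2 fold change -1.14, SE 0.37), CXCR3 (-1.48, SE 0.50), CCR6 (-2.06, SE 0.70) and CCR4 (-0.96, SE 0.38) all had every PSCN library below every PSC library. In this list 5 of 10 genes held that pattern, beside 13.4% of all genes tested. CCR7 and CCR6 are carried by B cells and dendritic cells as well.

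**Figure D5:**
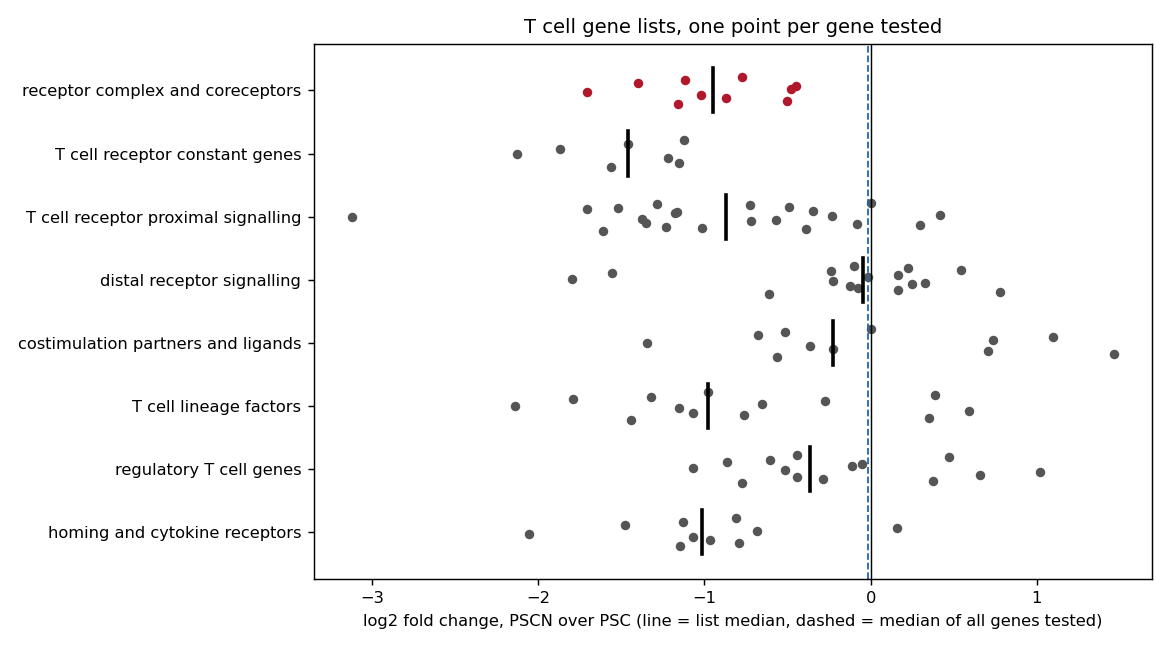
Log2 fold change of PSCN over PSC for every tested gene of the receptor and coreceptor genes (red) and of 7 further lists (grey), with the median of each list (black bar) and of all genes tested (dashed line, -0.01). The constant-region genes have the lowest median, -1.46, and the distal signalling genes the highest, -0.05.

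Markers of other cells that carry some of these genes moved as follows, and their part in the results was not tested. Of the B cell markers, MS4A1 stood at 0.729 to 3.06 CPM in PSCN and 5.75 to 43.1 CPM in PSC, and PAX5 at 0.7 to 2.5 CPM in PSCN and 6.97 to 28.7 CPM in PSC. The B cell receptor genes CD79A and CD79B stood at 1.6 to 4.34 and 2.04 to 4.70 CPM in PSCN, against 13.0 to 45.9 and 12.3 to 31.4 CPM in PSC. All PSCN libraries were below all PSC libraries for each of these, a pattern held by 13.4% of all genes tested. Log2 fold changes were -3.45, -3.48, -3.33 and -2.68 for MS4A1, PAX5, CD79A and CD79B, and edgeR called none of them (adjusted p = 0.166 to 0.187). Plasma cells, which can carry CD28, had JCHAIN at 23.7 to 88.0 CPM in PSCN and 149 to 217 CPM in PSC, and the whole list of 4, led by SDC1 of epithelium, summed to 1075 to 1326 CPM in PSCN and 722 to 1101 CPM in PSC.

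Conventional dendritic cell markers summed to 100 to 153 CPM in PSCN and 74.9 to 161 CPM in PSC, with 5 of 6 tested negative. ITGAX, at 74.8 to 130 CPM in PSCN and 29.8 to 115 CPM in PSC, made up much of that sum. XCR1 and FLT3, markers of conventional dendritic cells and their precursors, were at 1.34 to 2.48 and 1.79 to 2.4 CPM in PSCN and at 5.73 to 7.82 and 5.17 to 10.3 CPM in PSC. Their log2 fold changes of -1.79 (SE 0.33) and -1.71 (SE 0.36), without overlap, were about as large as that of CD28, and edgeR did not call them (adjusted p = 0.171 and 0.175). Of the 6 tested, 3 had all PSCN libraries below all PSC libraries, a pattern held by 13.4% of all genes tested. CLEC9A overlapped, at 4.16 to 5.33 CPM in PSCN and 2.78 to 14.0 CPM in PSC (log2 fold change -0.54, SE 0.65).

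Natural killer markers summed to 8.96 to 29.9 CPM in PSCN and 10.4 to 40.2 CPM in PSC, with 4 of 5 negative. Plasmacytoid dendritic markers summed to 164 to 320 CPM in PSCN and 200 to 332 CPM in PSC, with 4 of 4 negative. Macrophage markers summed to 266 to 567 CPM in PSCN and 179 to 395 CPM in PSC, with 3 of 5 negative. Innate lymphoid markers summed to 160 to 239 CPM in PSCN and 205 to 213 CPM in PSC, with 5 of 6 negative. GZMA and PRF1 made up most of the natural killer sum, BST2 and TCF4 of the plasmacytoid sum and KIT of the innate lymphoid sum. All of these overlapped. Every PSCN library was below every PSC library for 2 natural killer, 2 plasmacytoid, 0 macrophage and 4 innate lymphoid markers. That pattern was held by 13.4% of all genes tested. AREG, an innate lymphoid marker, had every PSCN library above every PSC library, beside 15.2% of all genes tested.

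The T cell markers, 4 of which are CD3 genes described above, summed to 31.8 to 80.3 CPM in PSCN and 64.3 to 171 CPM in PSC, with 9 of 9 negative. Neutrophil markers summed to 210 to 1091 CPM in PSCN and 30.7 to 453 CPM in PSC, with 0 of 4 negative. Squamous tumour markers summed to 5410 to 18120 CPM in PSCN and 238 to 4389 CPM in PSC. No marker of these lists stood at 0 in all libraries of a group.

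Tissue markers were uneven in both groups. Alveolar type 2 markers summed to 1681 to 2054 CPM in PSCN and 780 to 9731 CPM in PSC, and ciliated markers to 370 to 435 CPM in PSCN and 362 to 1048 CPM in PSC. Endothelial markers summed to 268 to 494 CPM in PSCN and 212 to 1015 CPM in PSC, and fibroblast markers to 648 to 36288 CPM in PSCN and 675 to 2413 CPM in PSC. PSCN library 1 stood apart for the fibroblast sum, at 36288 CPM against 1139 and 648 CPM in PSCN libraries 2 and 3. COL1A1 (19229 CPM) and COL1A2 (16833 CPM) made up most of that sum. DCN, the remaining marker, was also highest in PSCN library 1, at 226 CPM against 69.5 to 150 CPM in PSC. Log2 fold changes were 3.16 (SE 1.65) for COL1A1, 3.05 (SE 1.62) for COL1A2 and -0.23 (SE 0.79) for DCN. PSCN library 1 was the lowest of the 6 libraries for 8 of the 10 receptor and coreceptor genes, and a link was not tested. PSC library 3 was the lowest PSC library for alveolar, ciliated and endothelial markers, while it was the highest for every one of the 10 receptor and coreceptor genes.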

How the data were processed

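Total RNA of 6 tumour biopsies had been sequenced as stranded total RNA libraries with paired reads of 76 nt, per the labels' protocols. The genome GRCm38 and the tools Trimmomatic, HISAT2, StringTie and DESeq2 are named, with no versions, in the submitters' processing notes. Whether counting used strand is not given. The authors deposited estimated counts per gene symbol, already whole numbers, which were used as they stand. Per the file headers, the authors also deposited DESeq2's mean signal, log2 fold changes with standard errors, a Wald score, and p-values with adjusted p-values. The letters of the count columns were matched to PSC and PSCN by letter and number, a match that the labels do not spell out. The reads carry no stated molecular identifiers and may repeat molecules, so errors cover the spread of these libraries and their counting only.

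Genes were filtered with filterByExpr, which left 21201, and scaled with TMM factors. The quasi-likelihood test of edgeR 4.0.16 (R 4.3.3) was run on them all, with p-values adjusted by Benjamini-Hochberg and a threshold of 0.05. Each SE was taken as the absolute log2 fold change over the root of its F statistic. Correlations used log2 CPM with a prior count of 2. Likeness was ranked among genes with a mean of at least 1 CPM. Ratios were compared with exact permutation tests of 3 against 3 libraries. Alternatives were DESeq2 1.42.0, limma-voom of limma 3.58.1 with sample quality weights, RLE and upper quartile scaling, other filters, each library left out, a replicate block and ratios per kilobase. Sex as a covariate and ratios to PTPRC or CD3E were added after the data were seen. The fits of edgeR, DESeq2 and limma-voom with group only were tested on simulated data, and the other alternatives were not. Gene positions and exon lengths came from GENCODE M21, and promoter windows from RefSeq.

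The 10 genes, the gene lists and the tests were chosen with earlier results of these data known. Named genes were the 10 genes, up to 4 with the smallest p of each list, NSD3, XIST and DDX3Y, and the 8 genes most like the mean of the 4 CD3 chains (predicted genes left out). KRT5, XCR1, FLT3, CLEC9A, ITGAX, the B cell markers, JCHAIN, SDC1, PTPRC, POU2F1, CCDC22, PPP1R3F, CTLA4, BCL10 and the variable segments were named after their values were seen where these rules did not name them. The same holds for GZMA, PRF1, BST2, TCF4, KIT, AREG, COL1A1, COL1A2, DCN, GM36995 and FLICR. Some genes that met these rules are not reported here.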

Additional observations from a re-analysis of the deposited data

How the results depend on the processing

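Over the 10 genes and 14 alternatives, 130 of 140 log2 fold changes were negative and 3 had an adjusted p under 0.05. The Wald test of DESeq2 called 1126 genes higher and 1834 lower in PSCN, including 2 of the 10 genes. With limma-voom and quality weights 1788 genes were higher and 1238 lower, including 1 of the 10. edgeR called 3 genes higher after the filter of 1 CPM in 3 libraries. Leaving out 1 library gave 0 to 751 genes higher and 0 to 1195 lower, the upper ends without PSC library 3, and 0 of the 10 genes each time. With limma-voom CD8A, CD8B1 and ICOS stood at 0.27, 0.17 and 0.086. With sex as a covariate, added after the data were seen, PSC library 1 was the only PSC library behind the group difference. CD8A, CD8B1, ICOS and FOXP3 stood at 0.99, 1.21, 0.55 and 0.21 in that fit. The list medians for proximal signalling, distal signalling, costimulation and regulatory T cell genes then stood at -0.15, 0.36, 0.76 and 0.35, and that of the constant-region genes at -1.52. Over single libraries left out, the log2 fold change of CD8A ran from -1.75 to 0.72, of CD8B1 from -1.61 to 0.61 and of ICOS from -1.20 to 0.33, and the log2 difference of the CD8B1 to CD8A ratio from -0.21 to 0.28. The cause was not tested. RLE and upper quartile scaling changed the sign of none of the 10 genes.

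Over all genes tested, replicate numbers did not pair the samples: the deviations of same-numbered libraries correlated at 0.186, -0.0535 and 0.0158. For the 10 genes the numbers ordered both groups much alike. Library 3 was the highest of its group for 10 of 10 in both, and library 1 the lowest for 8 in PSCN and 10 in PSC. With a replicate block 0 genes were called higher and 0 of the 10 genes lower, CD28 standing at -1.68 and CD3E at -1.16 (edgeR adjusted p = 0.253 for both). The SE of CD3E was 0.24 with the block and 0.66 without it, and that of CD8A 0.31 and 0.96. With 3 libraries a group, differences near the SE of the CD8 genes in the fit without the block are not detectable.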

Other observations

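Variable segments of the receptor chains were thinly covered. The 134 TRAV and TRDV symbols summed to 1.57, 2.52 and 3.21 CPM in PSCN libraries 1, 2 and 3 and to 2.62, 2.38 and 8.76 CPM in PSC libraries 1, 2 and 3. At least 1 count was found for 28, 29 and 50 of these symbols in PSCN and for 43, 40 and 77 in PSC. The 35 TRBV symbols summed to 2.13, 1.59 and 5.16 CPM in PSCN and to 3.83, 4.65 and 10.7 CPM in PSC. Library 3 was again the highest of its group for both sums. At least 1 count was found for 15, 12 and 20 TRBV symbols in PSCN and for 13, 13 and 11 in PSC. There PSC library 3 had the fewest.

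The 6 gamma variable symbols had 23, 5 and 8 counts in PSCN and 61, 42 and 57 counts in PSC. These counts did not overlap between groups, and PSC library 3 was not the highest there. Nor was it the highest PSC library for TCRG-C1, TCRG-C4 and TRDC, while for TCRG-C2 library 3 was the highest of both groups, at 0.684 CPM in PSCN and 2.19 CPM in PSC. These segments belong to the gamma chain of gamma-delta T cells. No test was run on the summed segments.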
